A study of Mus musculus with 5 samples.

Results

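The HoxA cluster genes described here are 8 of the homeobox genes of the cluster on mouse chromosome 6: Hoxa2, Hoxa3, Hoxa4, Hoxa5, Hoxa6, Hoxa7, Hoxa9 and Hoxa10. They were taken by symbol from a deposited table of 19699 gene entries, in which each had 1 entry, and are given in the order of the cluster. The list was chosen by values of these same libraries, the FPKM of the mutants against that of the controls, so the members' differences between the groups are given as a description, with no p-value for a member. Counts of members past a threshold stand beside the share of all genes past it, and nothing is read from them. The 5 RNA-seq libraries came from the main airway of mouse embryos at E13.5, with trachea and lung. The 2 mutant libraries carried a deletion of Prmt5, an arginine methyltransferase, in lung epithelial cells. Their genotype label reads Prmt5 knockdown, the growth protocol speaks of C57 mice with a knockout, and the design text names Shh together with Prmt5 without stating the allele. The 3 control libraries are labelled WT and were littermates. The alleles the controls carry, and how many embryos each library held, are not stated in the labels, so the spread between libraries may be technical in part. The treatment text of the labels describes fat cell culture rather than embryos and was not used.

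Hox genes encode transcription factors that give cells their position along the body axis. Within a cluster they lie in the order of their paralog groups, and genes with low numbers are in general expressed further towards the head than those with high numbers. In the lung, Hoxa5 is a gene of the mesenchyme, and mice that lack it have malformed trachea and lungs. Hox proteins bind DNA with TALE cofactors of the Pbx and Meis families, and retinoic acid receptors, caudal-type Cdx factors and the Polycomb and Trithorax proteins are among the known regulators of the clusters.

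In short, the 3 members at the head end of the list (Hoxa2, Hoxa3 and Hoxa4) had overlapping levels in mutants and controls. Hoxa5, Hoxa6 and Hoxa7 were above all 3 controls in both mutants, at 1.45-fold, 3.87-fold and 2.57-fold the control mean on the FPKM scale (reads scaled to gene length and library size). Hoxa9 and Hoxa10 were near 0 in both groups. Both mutants lay above all controls for 3 of the 8 members and below them for 0, and across the 12838 genes tested these patterns were seen in 13.2% and 24.4%.

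The promoters of Hoxa5, Hoxa6 and Hoxa7 are printed because these are the members whose groups did not overlap. They are RefSeq windows of 300 bases on the minus strand of GRCm38.p6, from 250 bases before the annotated start to 50 after it. Capitals mark TTTATG, a site of caudal-type factors, and AGGTCA, a core site of nuclear receptors such as those for retinoic acid, with both strands searched.
Hoxa5, chr6:52204538-52204837: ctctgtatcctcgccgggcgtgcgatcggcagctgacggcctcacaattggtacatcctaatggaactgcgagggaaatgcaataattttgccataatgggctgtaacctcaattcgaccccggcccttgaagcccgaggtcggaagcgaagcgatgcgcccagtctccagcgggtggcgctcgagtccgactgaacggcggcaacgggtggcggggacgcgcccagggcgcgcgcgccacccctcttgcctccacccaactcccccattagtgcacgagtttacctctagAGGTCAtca
Hoxa6, chr6:52208623-52208922: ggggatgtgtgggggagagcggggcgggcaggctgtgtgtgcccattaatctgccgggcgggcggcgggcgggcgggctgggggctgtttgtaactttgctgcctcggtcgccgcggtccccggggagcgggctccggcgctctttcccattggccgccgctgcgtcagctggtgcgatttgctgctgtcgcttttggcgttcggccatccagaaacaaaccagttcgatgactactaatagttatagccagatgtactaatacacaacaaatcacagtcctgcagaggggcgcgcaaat
Hoxa7, chr6:52218524-52218823: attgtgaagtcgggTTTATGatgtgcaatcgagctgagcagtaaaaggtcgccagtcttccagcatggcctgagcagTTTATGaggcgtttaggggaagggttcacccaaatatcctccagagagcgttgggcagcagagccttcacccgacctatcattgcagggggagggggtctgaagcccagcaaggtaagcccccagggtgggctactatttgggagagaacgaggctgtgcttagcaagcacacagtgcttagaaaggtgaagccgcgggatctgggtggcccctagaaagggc
Counted from 1 at the 5′ end of the window, TTTATG began at positions 15 and 78 of the Hoxa7 promoter, and AGGTCA began at position 292 of the Hoxa5 promoter. The Hoxa6 window held neither. The table had 8 windows for 7 of the members, with 2 for Hoxa10 and none matched for Hoxa4. Of these 8 windows, 1 held TTTATG and 1 held AGGTCA, while 11.9% and 16.3% of all 32851 windows did. The homeodomain core TAATTA was in 0 of the 8 and in 5.29% of all windows. The TATA box TATAAA, whose reverse strand shares its first 5 letters with TTTATG, was in 1 of the 8, a Hoxa10 window, and in 13.6% of all. The promoters of Hoxa5 and Hoxa6 held 29 and 26 CpG pairs and that of Hoxa7 held 9, with a median of 7 over all windows. A match of letters is a description and not a measured site of binding.

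The library reads recovered from the FPKM steps ranged from 15652503 to 18682463. Prmt5 itself measured 23.7 and 20.1 FPKM in mutant and 28.7, 26.4 and 25.8 FPKM in control libraries, 0.813-fold by the means. Both mutants were thus below all controls, a pattern seen in 24.4% of all genes tested. The tissue also holds cells outside the epithelium, and their part in the Prmt5 values was not tested. With limma on log2(FPKM + 1) and an adjusted p under 0.05, 303 of 12838 genes were called (2.36%), 127 higher (0.989%) and 176 lower (1.37%) in the mutants. The split was 151 to 140 after median ratio scaling, 133 to 117 after quantile normalization and 17 to 80 with TPM. The median log2 difference of all genes tested was -0.06, and it was -0.58 with TPM and -0.14 with TPM computed without Gm23935, an entry whose share in the FPKM total ranged from 7.69% to 64.8%. The Y-linked gene Ddx3y measured 10.8 and 12.0 FPKM in mutant and 2.54 to 9.91 FPKM in control libraries, and Xist measured 0.0673 and 0.289 FPKM in mutant and 57.3 to 115 FPKM in control libraries. The share of male RNA thus differed between the libraries. It was estimated from the summed FPKM of a gene list, set to 1 in the highest library. The estimate was 1 and 0.86 in mutant and 0.73, 0.598 and 0.142 in control libraries. Xist was near 0 in both mutants, so their step from 1 to 0.86 need not be one of male share. Xist and the estimate both set the mutants apart from all controls. Male share is thus confounded with genotype, and a fit cannot separate them. With that estimate as a covariate the log2 differences of Hoxa5, Hoxa6 and Hoxa7 were 0.84, 2.41 and 0.83. That of Hoxa4 went from -0.15 to 0.25, and 55 genes were called.

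Of the 8 members 6 were tested in that fit, which means that 2 or more libraries held them at no less than 1 FPKM. Hoxa7 passed this filter through the mutants alone, and Hoxa9 and Hoxa10 did not pass. At the adjusted threshold 0 of the 6 were called, where 2.36% of all genes were. An unadjusted p under 0.05 was reached by 3 of the 6 and by 18.9% of all genes tested. Limma with voom weights on the recovered reads called 1 of the 6 and 4.7% of all genes tested. The members were chosen by this same contrast, so these counts are no test of them. The median log2 difference was -0.02 over the 8 members and 0.23 over the 6, against -0.06 over all genes tested.

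Hoxa2 (chromosome 6, 52162417 to 52164831, GRCm38), a selector of the second pharyngeal arch and hindbrain, measured 17.7 and 14.3 FPKM in mutant and 17.3, 17.7 and 15.9 FPKM in control libraries. Mutant replicate 1 was the highest of all libraries, just above control replicate 2, and mutant replicate 2 was the lowest. The controls thus lay between the mutants. The means were 16.0 ± 2.44 (SD, n = 2) and 17.0 ± 0.91 FPKM (SD, n = 3), a log2 difference of -0.08. Of its exon bases 15.0% are shared with Gm28308 on the same strand. The values rested on 893 reads in mutant and 1599 in control libraries.

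Hoxa3 (52169062 to 52213336), which acts in the third pharyngeal arch and its thymus and parathyroid derivatives, measured 10.1 and 7.36 FPKM in mutant and 8.35, 10.8 and 11.5 FPKM in control libraries. Mutant replicate 2 was the lowest of the 5 libraries, and mutant replicate 1 was within the control range. The log2 difference was -0.21. The annotated Hoxa3 gene spans those of Hoxa4, Hoxa5 and Hoxa6, and 27.1% of its exon bases are shared with exons of other genes, mostly on the other strand. The sources used here do not say whether strand was used in counting, so reads of these genes cannot be told apart there.

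Hoxa4 (52189671 to 52191753), a member of paralog group 4, measured 22.3 and 17.8 FPKM in mutant and 16.0, 24.6 and 27.9 FPKM in control libraries. Both mutants lay within the control range, and control replicate 1 was the lowest library. The log2 difference was -0.15, and it was positive in 4 of 18 alternatives (0.00 to 0.25), not all of them independent. Of its exon bases 16.0% are shared with Gm29430 on the other strand.

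Hoxa5 (52201754 to 52204587), the member with a known part in lung and trachea, was the most abundant member in every library. The mutants had 2726 and 2040 reads (92.2 and 69.4 FPKM). In the controls 1430, 1894 and 2214 reads were found (40.8, 61.9 and 64.7 FPKM). Both mutants were above all controls, but the gap between mutant replicate 2 and control replicate 3 was smaller than the gap between the mutants. The means were 80.8 ± 16.1 (SD, n = 2) and 55.8 ± 13.1 FPKM (SD, n = 3), a log2 difference of 0.54 that became -0.03 with TPM. Without control replicate 1 the fold was 1.28, and with either mutant alone it was 1.24 or 1.65. None of its exon bases are shared with another gene.

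Hoxa6 (52206288 to 52208722), a member of paralog group 6, showed the largest difference of the 8. The mutants had 150 and 144 reads (10.9 and 10.5 FPKM). In the controls 17, 49 and 61 reads were found (1.04, 3.44 and 3.83 FPKM). The mutants were close to each other and far above every control, while the controls spanned a 3.68-fold range with control replicate 1 the lowest. The means were 10.7 ± 0.259 (SD, n = 2) and 2.77 ± 1.51 FPKM (SD, n = 3), a log2 difference of 1.73. The log2 difference was positive in all 18 alternatives (1.06 to 2.41), many of which could not change its sign. The fold was 2.95 without control replicate 1. Its exons are not shared with another gene.

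Hoxa7 (52214491 to 52221854), a member of paralog group 7, measured 1.26 and 1.73 FPKM in mutant and 0.261, 0.896 and 0.592 FPKM in control libraries. These values rest on 57 and 78 reads in the mutants and on 14, 42 and 31 in the controls. Both mutants were above all controls, with mutant replicate 1 closest to control replicate 2. The pooled level with its exact Poisson interval, which covers counting error only, was 1.49 FPKM (95% interval 1.25 to 1.77) in the mutants and 0.569 FPKM (0.455 to 0.701) in the controls. The log2 difference of 0.67 understates the change of so low a gene, and it was 1.49 with voom, which uses a far smaller offset. Of its exon bases 20.4% are shared with the antisense RNA Hoxaas3, which measured 3.67 and 3.07 FPKM in mutant and 2.87, 3.08 and 3.15 FPKM in control libraries.

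Hoxa9 (52223100 to 52231089) and Hoxa10 (52231197 to 52240854), genes of the trunk, limb and reproductive tract, were at the edge of detection. Hoxa9 had 6 and 4 reads in mutant and 5, 8 and 6 in control libraries, at 0.0458 to 0.0879 FPKM. Hoxa10 had 0 reads in both mutants and 0, 2 and 2 in the controls. A count of 0 over the mutants allows a level of up to 0.0292 FPKM (3 reads over both libraries), above the pooled control level of 0.023 FPKM. No difference was detectable at this depth for either gene.

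**Figure D1:**
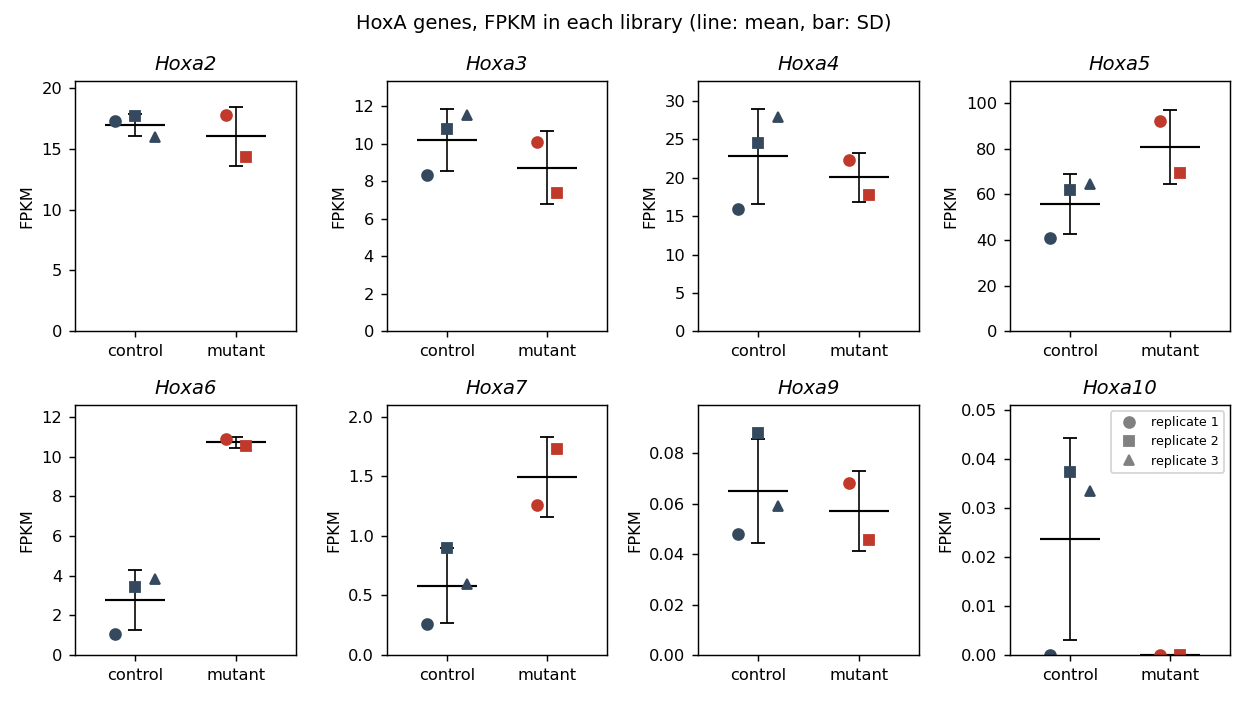
FPKM (vertical axes, each from 0 and on its own scale) of the 8 HoxA genes in 3 control and 2 mutant libraries. Each point is a library with its replicate number as its shape, lines are means and bars SDs; the mutants lie above all controls for Hoxa5, Hoxa6 and Hoxa7, and Hoxa6 has the mutants at 10.9 and 10.5 FPKM against at most 3.83 FPKM in the controls.

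FPKM is per length, so the members are ranked here by FPKM. The length is that of all annotated exons of a gene, and several members share exon bases with other genes, so the ranking is approximate. In the controls the order was Hoxa5, Hoxa4, Hoxa2, Hoxa3, Hoxa6, Hoxa7, Hoxa9 and Hoxa10, at means of 55.8, 22.8, 17.0, 10.2, 2.77, 0.583, 0.065 and 0.0237 FPKM. Among neighbours in this order the control values overlapped only for Hoxa4 and Hoxa2. In the mutants Hoxa6 stood before Hoxa3, and the rest of the order was that of the controls. The level thus peaked at Hoxa5 in both groups and dropped over the genes with higher numbers.

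Hoxa5 took 48.7% to 51.9% of the summed FPKM of the 8 members in the controls and 59.6% and 57.3% in the mutants. Hoxa6 took 1.24%, 2.88% and 3.07% in the controls and 7.05% and 8.69% in the mutants. The shares of Hoxa2, Hoxa3 and Hoxa4 were below those of every control in both mutants. They were 11.5% and 11.8% against 12.8% to 20.6% for Hoxa2, 6.54% and 6.07% against 9.05% to 9.97% for Hoxa3, and 14.4% and 14.7% against 19.1% to 22.4% for Hoxa4. Shares of 1 total are tied to each other, so larger shares of Hoxa5 and Hoxa6 leave smaller ones for the rest. The summed level itself was 155 and 121 FPKM in mutant and 83.7, 119 and 125 FPKM in control libraries, so the groups overlapped in the total.

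Ratios of neighbours within a library do not depend on how libraries are scaled. The ratio of Hoxa4 to Hoxa3 was 2.21 and 2.42 in the mutants and 1.91, 2.28 and 2.42 in the controls. That of Hoxa3 to Hoxa2 overlapped as well, at 0.57 and 0.515 against 0.483, 0.612 and 0.723. The ratio of Hoxa5 to Hoxa4 was 4.13 and 3.90 in the mutants and 2.56, 2.52 and 2.32 in the controls. It was the tightest of these measures in the controls, and the mutants were 1.63-fold higher, or 1.66-fold without control replicate 1. The ratio of Hoxa6 to Hoxa5 was 0.118 and 0.152 in the mutants and 0.0255, 0.0556 and 0.0592 in the controls, 2.88-fold higher, or 2.35-fold without control replicate 1. The ratio of Hoxa7 to Hoxa6 overlapped, at 0.115 and 0.165 against 0.25, 0.26 and 0.154. On these ratios the groups were apart at the steps from Hoxa4 to Hoxa5 and from Hoxa5 to Hoxa6, and overlapped at the other 3 steps. The ratios use the same values by which the members were chosen, and no share for other gene pairs was computed. They are a description, and nothing is read from how many did not overlap.

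**Figure D2:**
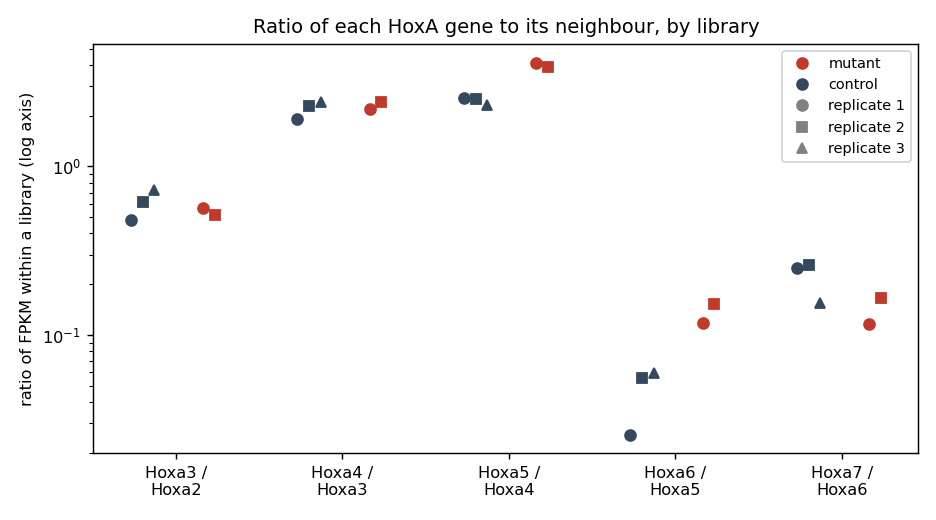
Ratio of the FPKM of each HoxA gene to that of the neighbour with the lower number (log axis), with 1 point for each library, coloured by group. Mutants lie above all controls for Hoxa5 over Hoxa4 (4.13 and 3.90 against at most 2.56) and Hoxa6 over Hoxa5 (0.118 and 0.152 against at most 0.0592), and the groups overlap in the other 3 ratios.

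The controls varied among themselves, and this variation does not use the contrast with the mutants. For 5 of the 6 members tested (Hoxa3 to Hoxa7) control replicate 1 was the lowest control, while Hoxa2 varied by only 1.11-fold with control replicate 3 the lowest. The share of all genes with control replicate 1 lowest was not computed, so nothing is read from this count. The highest control was 1.38-fold the lowest for Hoxa3, 1.59-fold for Hoxa5, 1.75-fold for Hoxa4, 3.44-fold for Hoxa7 and 3.68-fold for Hoxa6. The 2 members with the widest control range were thus also those with the largest fold between the groups. Their values in control replicate 1 rested on 17 reads for Hoxa6 and 14 reads for Hoxa7.

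The levels of cell type markers also differed between libraries. In bulk RNA fewer cells of a type and less RNA per cell cannot be told apart. The 6 lung mesenchyme markers (Tbx4, Tbx5, Foxf1, Wnt2, Fgf10 and Gli1) summed to 211 and 190 FPKM in mutant and 84.4, 134 and 121 FPKM in control libraries, and 3 of them (Tbx4, Wnt2 and Fgf10) were called higher by limma. Gli1 had the opposite sign, with means of 23.8 FPKM in the mutants and 27.1 FPKM in the controls (log2 difference -0.17, limma adjusted p = 0.677). The 4 mesothelium markers (Wt1, Msln, Upk3b and Calb2) summed to 78.9 and 96.8 FPKM against 10.2, 43.0 and 27.4 FPKM, with Calb2 called higher. Upk3b and Calb2 made up most of that sum, and Msln had the opposite sign at means of 0.453 and 1.11 FPKM (log2 difference -0.56, limma adjusted p = 0.313). Control replicate 1 was lowest in both sums and highest in the sum of 6 epithelial markers, which was 493 FPKM there, 250 and 191 FPKM in control replicates 2 and 3, and 175 and 176 FPKM in the mutants. None of the 6 epithelial markers was called, with 2 of them at an unadjusted p under 0.05 and 0 called by voom.

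Marker sums of skeletal muscle, cartilage and neurons were below all controls in both mutants. The 7 skeletal muscle markers summed to 67.6 and 152 FPKM in mutant and 290 to 700 FPKM in control libraries, and 6 of 7 were called lower. Actc1 made up most of that sum in every library, at 56.1 and 128 FPKM in mutant and 177 to 570 FPKM in control libraries. It was the marker not called (limma adjusted p = 0.112). Control replicate 3 was highest both for Actc1 and for the sum of heart muscle markers. The 5 cartilage markers summed to 42.2 and 36.3 FPKM against 55.7 to 79.0 FPKM, with Col2a1 and Col9a1 called lower. Sox9 had the opposite sign, at means of 24.4 and 20.9 FPKM (log2 difference 0.23, limma adjusted p = 0.548). The 5 markers of neurons and neural crest summed to 44.6 and 32.9 FPKM against 56.0 to 76.3 FPKM, with Tubb3 called lower. Sums of 4 heart muscle markers overlapped, at 115 and 321 FPKM against 162 to 747 FPKM, and so did those of 3 endothelial markers, at 58.5 and 76.2 FPKM against 58.7 to 81.3 FPKM. Markers of thymus and pharyngeal endoderm were near 0, with Foxn1 at 0 in 4 of the 5 libraries and a sum of at most 2.23 FPKM. The part of these differences in the HoxA values was not tested.

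Set against the summed lung mesenchyme markers of the same library, a measure chosen after the values were seen, Hoxa6 was above all controls in both mutants. It was 5.16% and 5.54% of that sum in the mutants and 1.23%, 2.56% and 3.16% in the controls. Hoxa7 overlapped on this scale, at 0.596% and 0.912% against 0.309% to 0.666%. Hoxa5 was below all controls, at 43.7% and 36.5% against 46.0% to 53.3%. Hoxa2, Hoxa3 and Hoxa4 were at 0.511-fold, 0.474-fold and 0.497-fold the control mean. The marker sum was 1.77-fold higher in the mutants, so this scale lowers the mutant value of every gene.

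The other genes of the cluster were read from a list of further protein genes, its non-coding RNAs and its flanking genes. Hoxa11 and Hoxa13 had at most 4 reads in any library. Among the cluster RNAs and flanking genes 11 were found, 9 were tested and 0 were called by limma, with 4 at an unadjusted p under 0.05 and 0 called by voom. Their median log2 difference was 0.10.

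Hotairm1, a cluster RNA transcribed from the other strand, measured 13.7 and 14.3 FPKM in mutant and 6.79, 10.6 and 8.57 FPKM in control libraries (log2 difference 0.66, SE 0.17, limma adjusted p = 0.0931). Both mutants were above all controls, but the test was not passed. Hoxaas2, which overlaps the 3′ end of Hoxa3 on the other strand, measured 6.16 and 4.70 FPKM in mutant and 6.72, 6.90 and 7.81 FPKM in control libraries (log2 difference -0.35, limma adjusted p = 0.239). Halr1, a long RNA gene next to the cluster, had 7 and 15 reads in mutant and 37, 26 and 32 in control libraries (log2 difference -0.73, SE 0.20, limma adjusted p = 0.106).

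None of the genes outside the cluster passed the test. Skap2, an adaptor protein gene flanking the cluster, was at 5.81 and 5.92 FPKM against 4.96, 4.20 and 4.57 FPKM (log2 difference 0.30, limma adjusted p = 0.234). Evx1, the homeobox gene beyond Hoxa13, was at 0 to 0.384 FPKM in all libraries. Snx10, Hibadh and Tax1bp1 had log2 differences of -0.08, 0.09 and 0.10. Within the cluster, the RNAs Hoxaas3 and 5730596B20Rik had 0.11 and 0.14.

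Genes of the same paralog group in the other Hox clusters are set beside the members, with the same libraries in every comparison. Of the 9 HoxB genes found, 7 were tested, all 7 had positive log2 differences, and Hoxb6 and Hoxb8 were called higher by limma. By voom 4 were called, with Hoxb5 (adjusted p = 0.018) and Hoxb7 (0.0274) added. Hoxb7 and Hoxb8 were under 1 FPKM in every control and passed the filter through the mutants alone. Their positive signs and calls are therefore partly set by the filter, and under a stricter filter neither was tested. Hoxb6 measured 27.5 and 18.3 FPKM in mutant and 2.21, 7.09 and 4.33 FPKM in control libraries (log2 difference 2.18, SE 0.36, limma adjusted p = 0.0312). Hoxb8 was at 6.09 and 5.87 FPKM against 0.488, 0.978 and 0.146 FPKM (log2 difference 2.22, SE 0.24, limma adjusted p = 0.00795). Both kept a positive sign but missed the threshold when low genes were kept and when male share entered the model (adjusted p = 0.15 and 0.103 for Hoxb6, 0.0575 and 0.0585 for Hoxb8), and Hoxb6 also with TPM (0.417) and with TPM without Gm23935 (0.0542). Both also lost it when either mutant library was left out (0.107 to 0.19).

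Hoxb5, the HoxB gene with the highest control mean, measured 44.0 and 37.4 FPKM in mutant and 9.72, 22.5 and 15.6 FPKM in control libraries (log2 difference 1.37, SE 0.29, limma adjusted p = 0.06). In paralog groups 2, 3 and 4 the log2 differences were -0.08, -0.21 and -0.15 for HoxA and 0.47, 0.36 and 0.37 for HoxB. In groups 5, 6 and 7 they were 0.54, 1.73 and 0.67 for HoxA and 1.37, 2.18 and 1.16 for HoxB. In both clusters group 6 was the highest of groups 2 to 7, but Hoxb8 in group 8 was higher still, at 2.22. On the FPKM scale Hoxb6 was at 5.05-fold the control mean, and Hoxb8 and Hoxb9 were at 11.1-fold and 10.1-fold. In group 9, below the filter in both clusters, there were 81 reads of Hoxb9 in the mutants against 13 in the controls and 10 of Hoxa9 against 19.

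HoxC and HoxD genes were scarce. Of 7 HoxC genes found 2 were tested and 0 called by limma or voom, with Hoxc5 at an unadjusted p under 0.05. Hoxc4, the highest, measured 3.29 and 3.11 FPKM in mutant and 3.31 to 4.49 FPKM in control libraries (log2 difference -0.19, limma adjusted p = 0.556). Hoxc5, which passed the filter through the mutants alone, was at 1.27 and 1.05 FPKM against 0.589, 0.635 and 0.533 FPKM (log2 difference 0.45, limma adjusted p = 0.245). Of 7 HoxD genes found 1 was tested, Hoxd9, at 1.07 and 0.299 FPKM against 0.777, 0.833 and 1.31 FPKM (limma adjusted p = 0.657), and 0 were called by limma or voom or reached an unadjusted p under 0.05. Hoxd4 has 2 entries and was not tested.

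**Figure D3:**
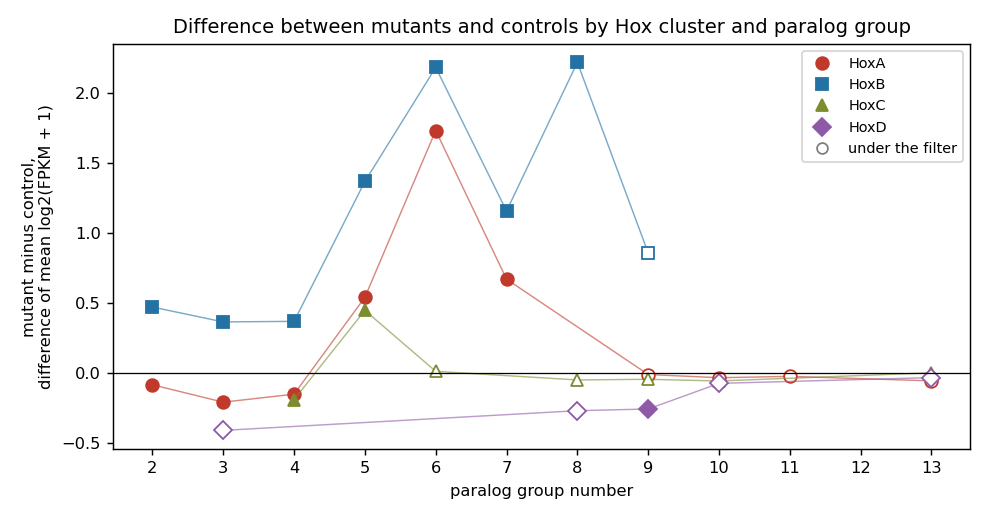
Difference of mean log2(FPKM + 1), mutant minus control (vertical axis), by paralog group number from 2 to 13 (horizontal axis) for the 4 Hox clusters; filled points passed the filter on low values and open points did not. Among groups 2 to 7, HoxA and HoxB are highest at group 6 (1.73 and 2.18), but Hoxb8 in group 8 is higher, at 2.22. HoxA lies just below 0 in groups 2 to 4.

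The cofactors and known regulators of Hox genes were read from lists of 9 and 31 genes. All 9 TALE cofactors were tested and 0 were called by limma, with 1 at an unadjusted p under 0.05 and 0 called by voom, and their median log2 difference was -0.12. The smallest p was that of Pbx3, which measured 11.1 and 7.85 FPKM in mutant and 11.8, 12.2 and 13.3 FPKM in control libraries (log2 difference -0.38, SE 0.15, limma adjusted p = 0.238). Pknox2 followed, at 2.13 and 1.83 FPKM against 2.97, 2.16 and 2.96 FPKM (log2 difference -0.30, limma adjusted p = 0.379).

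Of 30 regulators found 27 were tested and 0 were called by limma, with 7 at an unadjusted p under 0.05 and 2 called by voom, Kdm6a and Aldh1a2. Kdm6a, the X-linked gene of a histone H3 lysine 27 demethylase that escapes X inactivation, measured 5.64 and 5.44 FPKM in mutant and 8.53, 7.67 and 8.75 FPKM in control libraries (log2 difference -0.51, SE 0.11, limma adjusted p = 0.0678). Xist differed between the groups as well. Aldh1a2, which makes retinoic acid and is also a gene of mesothelium, was at 64.3 and 93.3 FPKM against 17.3, 44.0 and 35.5 FPKM (log2 difference 1.34, limma adjusted p = 0.106). Of the Cdx factors, Cdx1 and Cdx4 were at 0 in 4 of 5 libraries and at most 0.073 FPKM in mutant replicate 2.

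Nkx2-1, Foxa2 and Mycn are lower in lungs of mice without Hoxa5, as is known from earlier work. Here Nkx2-1, the lung lineage factor, measured 36.1 and 32.8 FPKM in mutant and 40.2, 43.1 and 20.4 FPKM in control libraries (log2 difference 0.06, limma adjusted p = 0.938). Foxa2, a forkhead factor of foregut epithelium, was at 9.59 and 9.95 FPKM against 27.6, 17.3 and 15.4 FPKM (log2 difference -0.92, SE 0.23, limma adjusted p = 0.0833). Mycn, a transcription factor gene of the growing lung tips, was at 13.4 and 13.2 FPKM against 10.7, 12.5 and 7.99 FPKM (log2 difference 0.35, limma adjusted p = 0.339). Of these 3 genes 0 were called by limma or voom, and 1, Foxa2, had an unadjusted p under 0.05.

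The genes nearest to the mean profile of the 6 members tested were found by Euclidean distance over the 5 libraries, with each profile of log2(FPKM + 1) centred on its mean. The 8 nearest were Dok1, Lingo1, Pyroxd2, Myc, Dach1, Nkain4, Fut4 and Nfam1, at distances of 0.0738 to 0.139. Dok1, the nearest, measured 7.61 and 6.46 FPKM in mutant and 3.84, 5.65 and 5.66 FPKM in control libraries. Myc was at 30.6 and 26.3 FPKM against 15.1, 25.2 and 23.3 FPKM. The members themselves lay at 0.212 (Hoxa5) to 1.54 (Hoxa6) from their mean, which runs over members of both signs. The 8 genes were picked for small distances, so their being nearer than the members follows from that choice.

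The 18 settings are not 18 separate checks of direction. The changes of filter and the fit without a variance trend leave every member's difference as reported. The replicate block gives the same difference as leaving out control replicate 3. Where both mutants lie above all controls, leaving out a library or changing the pseudocount cannot turn the sign. The direction of each member under the other processing settings was as follows. Hoxa6 and Hoxa7 were higher in the mutants in all 18 settings tried. Hoxa3, whose groups overlapped, was lower in all 18, but its difference ranged from -0.97 to -0.003 and was thus near 0 in some. Hoxa5 was higher in 16 of 18, and the exceptions were TPM (-0.03) and the scaling to lung mesenchyme markers (-0.29). Relative to the median of all genes under TPM, -0.58, Hoxa5 was still higher. Hoxa2 was lower in 17 of 18, with 0.06 when mutant replicate 2 was left out.

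**Figure D4:**
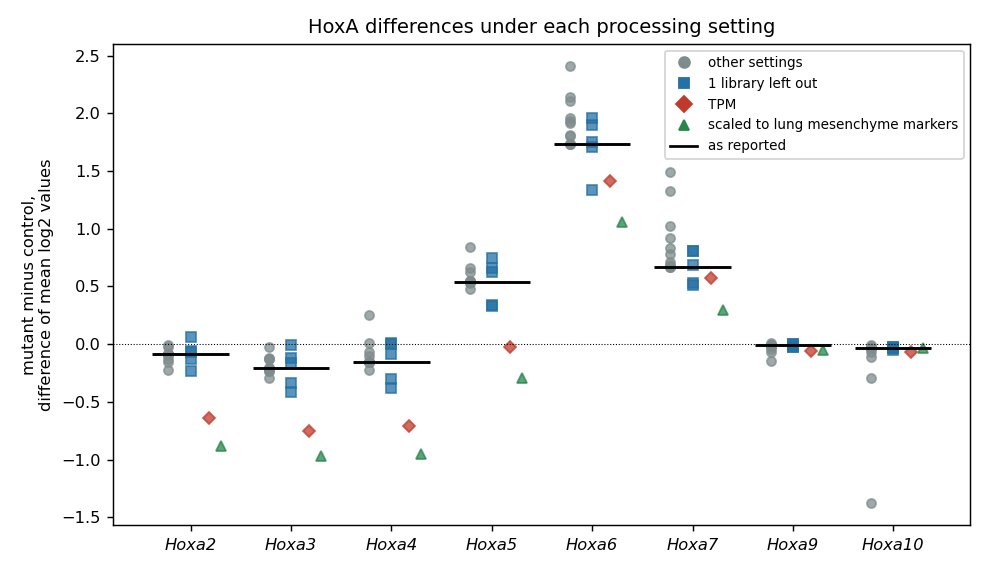
Mutant minus control difference of mean log2 values (vertical axis) for each HoxA gene under every processing setting, with the reported value as a black line. Hoxa6 stays between 1.06 and 2.41, while Hoxa5 drops to -0.03 with TPM (red diamond) and -0.29 when scaled to lung mesenchyme markers (green triangle).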

How the data were processed

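The authors deposited 1 table of 19699 gene entries for 2 mutant and 3 control libraries, with values in FPKM as the table is named. Per the submitters' processing notes the build was GRCm38 (mm10). Per the labels' protocols 1.3 ug of RNA entered a SMARTER library kit. The labels state no aligner, counter or use of strand. Groups came from sample titles.

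Every FPKM value was checked for whole steps of 1 read (tolerance 0.0001 reads). Such steps were found for 100.0% of entries and gave the reads per gene. The implied length matched GENCODE M21 exons for 13965 entries, all 8 members included, and gene positions are from that annotation.

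Groups were compared with limma 3.58.1 in R 4.3.3 on log2(FPKM + 1), using a variance trend and two-sided p-values with Benjamini-Hochberg adjustment over 12838 genes that reached 1 FPKM in 2 or more libraries. Fold changes on that scale understate the change of low genes. The fit was also run on simulated reads with the same spread for every gene and no differences in cell types or sex. That run therefore does not cover the differences between these libraries. Alternatives were no filter, a stricter filter, other pseudocounts, scalings and models, and leaving out each library. The members, lists and rules were chosen with earlier results of these data known. Named genes were all members, listed cluster genes, called or most abundant genes of the other Hox clusters, called genes or the 2 smallest p in the cofactor and regulator lists, the Hoxa5 lung genes, and the 8 nearest profiles. The other HoxB genes, Hoxc5, Hoxd9, Cdx1, Cdx4 and the marker genes were named after their values were seen.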

Additional observations from a re-analysis of the deposited data

How the results depend on the processing

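Of the alternatives to the fit, no filter on low values left 69 genes called of 303, TPM 97, male share in the model 55, and voom on recovered reads gave 604. Leaving out 1 library gave 4 to 284 calls, with 4 without mutant replicate 1 and 11 without mutant replicate 2, where the lone mutant is assumed to vary like the controls. The median log2 difference of the 8 members, -0.02, ranged from -0.17 (scaled to lung mesenchyme markers, chosen after the data were seen) to 0.12 (male share). It runs over members of both signs and says little of each: under the mesenchyme scaling Hoxa5 went from 0.54 to -0.29. Replicate numbers 1 and 2 are shared by the groups only as numbers (correlations of deviations -0.0671 and 0.0203), and the replicate block gave 259 calls. With 2 mutants, single genes with few reads such as Hoxa7, Hoxa9 and Hoxa10 are limited by depth as well as by the number of libraries.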
